A study of Mus musculus with 12 samples.

Results

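The Hox genes encode homeodomain transcription factors that set position along the body axis, and in the mouse they lie in 4 clusters, HoxA, HoxB, HoxC and HoxD. The protein-coding genes named Hoxa, Hoxb, Hoxc or Hoxd and a number were read from RefSeq's annotation of mouse build GRCm38, which gave 39 of the 20140 protein-coding genes placed in the mapped part of chromosomes 1 to 19. HoxA on chromosome 6 holds 11 of them, HoxB on chromosome 11 holds 10, and HoxC on chromosome 15 and HoxD on chromosome 2 hold 9 each. The clusters were read together with the gene deserts beside them.

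Within a cluster, Hox genes are switched on in the order in which they lie, with low-numbered (anterior) genes at one end and high-numbered (posterior) genes at the other, and Polycomb proteins keep them silent in early embryos. The nuclear lamina lines the inner side of the nuclear envelope, and the chromatin that contacts it, called lamina-associated domains (LADs), is mostly poor in genes and little transcribed. Genes of the same number in different clusters are paralogues, descended from one ancestral gene.

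LADs were mapped by DamID, in which the bacterial adenine methyltransferase Dam, fused to lamin B1, marks DNA near the lamina by methylating the sequence GATC. The 12 samples are embryos of the genotype (C57BL/6J xCBA) x DBA/2J in 4 groups of 3 replicates: siRif1 4-cell, siControl 4-cell, siRif1 8-cell and siControl 8-cell. Zygotes received 20 µM siRNA, against Rif1 or a control, at 17 to 18 h after hCG, the hormone given to induce ovulation. Rif1 is known for setting when regions of the genome replicate; its own gene was outside LADs in all 4 lists. Every embryo was also injected, as a 2-cell embryo at 46 to 48 h, with Tir1 at 250 ng/µL, membrane-eGFP at 100 ng/µL and AID-Dam-LaminB1 at 20 ng/µL, and was kept in 500 µM auxin, which degrades the AID-tagged fusion. Auxin was removed at 54 h for 4-cell and at 66 h for 8-cell embryos, which were collected at 60 to 62 h and at 72 to 74 h. A replicate pooled 16 to 24 blastomeres, from 4 to 6 embryos at the 4-cell stage or 2 to 3 at the 8-cell stage.

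The authors deposited 1 list of LADs per group, made from all 3 replicates, with borders on a 100-kb grid. The lists therefore give no spread between replicates and no read depth, no test between groups could be made, and no p-value is given. They hold no RNA levels, so neither the knockdown nor the stage could be checked from them. LADs covered 43.5% of the mapped span in siRif1 4-cell, 32.9% in siControl 4-cell, 42.9% in siRif1 8-cell and 44.7% in siControl 8-cell embryos. A gene is called LAD where its midpoint lies in an interval of the list. The 39 Hox genes touch only 9 bins of the 100-kb grid, 2 each in HoxA, HoxC and HoxD and 3 in HoxB, so genes of a cluster are readings of 1 locus and not replicates.

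Each cluster had 1 state for all of its genes in every list. The 9 HoxD genes were LAD in siControl embryos at both stages and outside LADs in siRif1 embryos at both stages. The 9 HoxC genes were LAD in siRif1 8-cell embryos and in no other group. The 21 genes of HoxA and HoxB were outside LADs in all 4 lists.

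**Figure D1:**
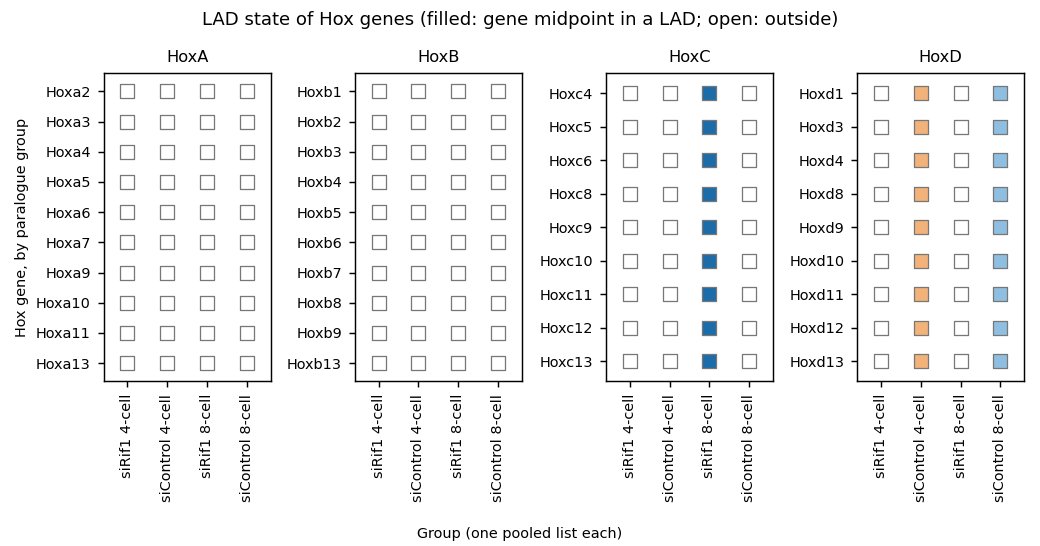
LAD state of Hox genes of the 4 clusters (rows, by paralogue number) in the 4 groups (columns, 1 pooled list each); a filled square means that the gene's midpoint lies in a LAD. HoxA and HoxB have no filled square, HoxC has 9 in siRif1 8-cell embryos, and HoxD has 9 in each of the siControl groups.

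At the 4-cell stage, 0 of 39 Hox genes were LAD in siRif1 embryos, where 24% of all protein-coding genes were LAD, and 9 of 39 (23.1%) in siControl embryos, where 24.7% were. At the 8-cell stage, 9 of 39 were LAD in siRif1 embryos (all protein-coding genes 24.2%) and 9 of 39 in siControl embryos (26.3%). The shares of 23.1% are near those of all genes and move in steps of a whole cluster. None of the Hox genes was LAD in all 4 lists, as 9.66% of all protein-coding genes were.

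At the 4-cell stage, 0 of 39 Hox genes gained LAD state with siRif1 relative to siControl, against 7.37% of all protein-coding genes, and the 9 HoxD genes lost it, against 8.08% of all genes. At the 8-cell stage, the 9 HoxC genes gained LAD state with siRif1 relative to siControl, against 7.33% of all genes, and the 9 HoxD genes lost it, against 9.37%. Over all 4 lists, the HoxD state (LAD in both siControl groups alone) was shared by 204 protein-coding genes, 1.01% of all, and the HoxC state (LAD in siRif1 8-cell alone) by 777, or 3.86%. The HoxA and HoxB state (outside all 4 lists) was that of 11567 genes, 57.4%.

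Between the stages, control embryos kept the state of all 39 Hox genes: 0 were LAD at the 8-cell stage alone (all protein-coding genes 11.2%) and 0 at the 4-cell stage alone (all genes 9.59%). This rests on single bins: with every LAD shortened by 1 bin at each end, 5 HoxD genes were in a LAD in siControl 8-cell but not in siControl 4-cell embryos, and with every LAD lengthened by 1 bin, 3 HoxC genes were in a LAD in siControl 4-cell but not in siControl 8-cell embryos. In siRif1 embryos the 9 HoxC genes were LAD at the 8-cell and not at the 4-cell stage (all genes 8.83%), and 0 Hox genes went the other way (all genes 8.58%). The calls of siRif1 embryos thus differ from those of siControl embryos in 9 genes at the 4-cell stage and in 18 at the 8-cell stage, which are 1 and 2 loci.

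**Figure D2:**
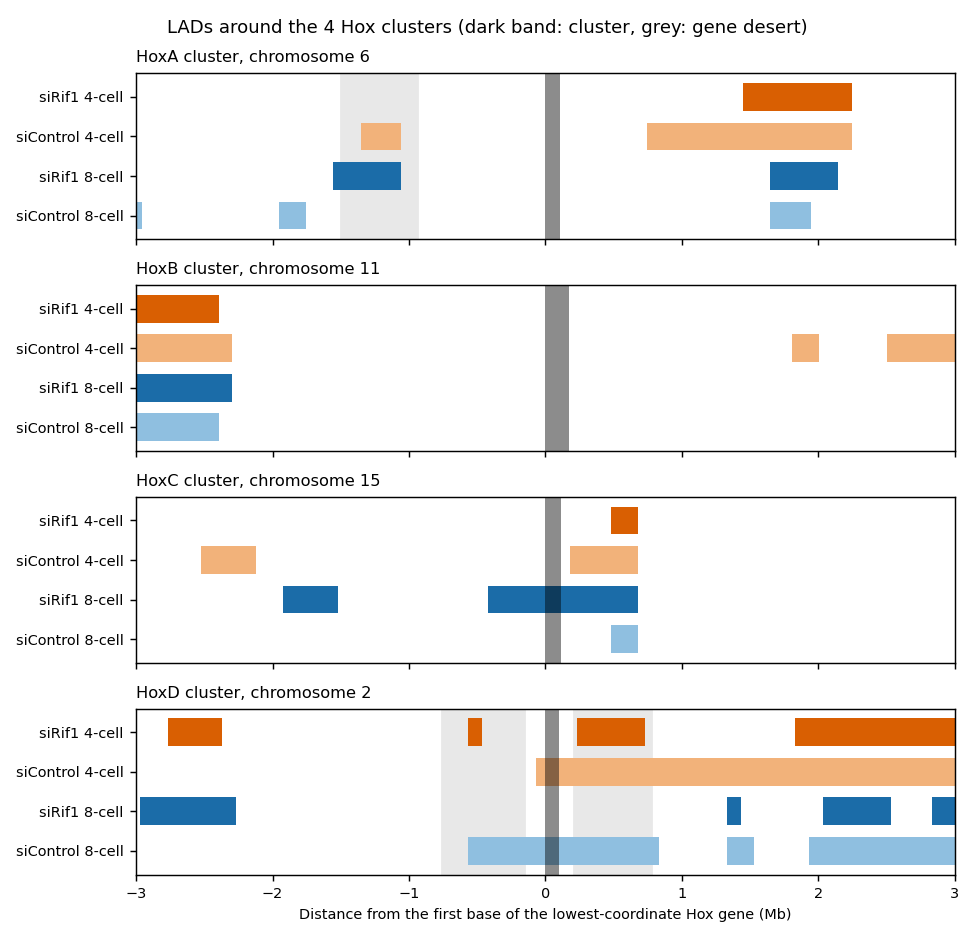
LADs (coloured bars, 1 row per group) within 3 Mb of each Hox cluster, against the distance in Mb from the first base of the cluster's lowest-coordinate gene; the dark band is the cluster and grey bands are gene deserts of at least 500 kb. HoxD is crossed by the LADs of both siControl groups, HoxC by that of siRif1 8-cell embryos, and no LAD crosses HoxA or HoxB.

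HoxD lies on the plus strand of chromosome 2 from 74668225 to 74765142 (96.9 kb), from the posterior gene Hoxd13, which patterns digits, to the anterior gene Hoxd1. The posterior genes Hoxd9 to Hoxd13 are known for their part in limb development. Promoter windows of genes at both ends and in the middle of the cluster are shown, since the whole cluster changed state together. The windows run from 250 bases before to 50 bases after the start (RefSeq, GRCm38.p6, plus strand), at chr2:74667975-74668274, chr2:74697513-74697812 and chr2:74762730-74763029. Capitals mark GATC, the only sequence that Dam can methylate, which reads the same on both strands.
Hoxd13 promoter: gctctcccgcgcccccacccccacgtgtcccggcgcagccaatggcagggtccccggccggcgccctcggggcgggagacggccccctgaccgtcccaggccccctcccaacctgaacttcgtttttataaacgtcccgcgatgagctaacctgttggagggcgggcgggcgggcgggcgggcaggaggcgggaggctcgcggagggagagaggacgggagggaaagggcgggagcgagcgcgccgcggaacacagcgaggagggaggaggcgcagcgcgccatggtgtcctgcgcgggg
Hoxd9 promoter: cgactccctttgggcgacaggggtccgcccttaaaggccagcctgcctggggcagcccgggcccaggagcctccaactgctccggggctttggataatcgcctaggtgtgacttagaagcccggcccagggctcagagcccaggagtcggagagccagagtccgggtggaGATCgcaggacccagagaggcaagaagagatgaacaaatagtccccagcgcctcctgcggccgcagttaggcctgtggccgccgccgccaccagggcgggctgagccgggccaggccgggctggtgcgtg
Hoxd1 promoter: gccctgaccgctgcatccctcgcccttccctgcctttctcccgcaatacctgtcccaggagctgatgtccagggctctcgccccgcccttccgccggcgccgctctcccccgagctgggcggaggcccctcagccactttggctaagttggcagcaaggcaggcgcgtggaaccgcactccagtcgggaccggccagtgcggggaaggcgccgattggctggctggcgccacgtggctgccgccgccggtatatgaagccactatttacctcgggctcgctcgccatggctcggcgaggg

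The Hoxd9 window holds 1 GATC and the windows of Hoxd13 and Hoxd1 hold none. Of the 10 HoxD windows, which cover all 9 genes, 5 hold a GATC, against 48.0% of all 32851 promoter windows. Over the 4 clusters, 16 of the 24 windows found, for 22 of the 39 genes, hold one (66.7%). The GC content of the Hox windows had a median of 57.7% (39.7 to 81%), against 52.7% for all windows. A window of 300 bases is far finer than the 100-kb grid of the LAD lists, so a match says nothing of the signal at one promoter.

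In siRif1 4-cell embryos HoxD lay in a gap of 0.7 Mb between a LAD of a single bin at 74100001 to 74200000 and a LAD at 74900001 to 75400000. The nearer of these began 135 kb beyond Hoxd1. In siControl 4-cell embryos the cluster lay in a LAD of 3.2 Mb, from 74600001 to 77800000. Its border came 68.2 kb before Hoxd13, on the posterior side, while it reached 3.03 Mb past Hoxd1. The HoxD midpoints were 69.9 to 164 kb inside this border, with a median of 99.0 kb, against a median of 400 kb for the 4977 protein-coding genes in LADs of that list. With every LAD shortened by 1 bin at each end, 4 of the 9 HoxD genes stayed LAD there (Hoxd8, Hoxd3, Hoxd4 and Hoxd1) and the 5 posterior ones did not, so the call for Hoxd9 to Hoxd13 rests on 1 bin.

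In siRif1 8-cell embryos HoxD lay in a gap of 3.6 Mb, and the nearest LAD, of a single bin at 76000001 to 76100000, was 1.23 Mb beyond Hoxd1. In siControl 8-cell embryos it lay in a LAD of 1.4 Mb, from 74100001 to 75500000, which began 568 kb before Hoxd13 and ended 735 kb past Hoxd1. The midpoints were 570 to 664 kb inside its border, further than the 463 kb that is the median for genes in LADs of that list. The control LADs of the 2 stages thus share the cluster but not their borders.

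The control LADs that hold HoxD differed in how much of them was LAD elsewhere. Of the 32 bins of the siControl 4-cell LAD, 18 (56.3%) were LAD in siRif1 4-cell, 9 (28.1%) in siRif1 8-cell and 23 (71.9%) in siControl 8-cell embryos. Of its 21 protein-coding genes other than Hox, 9, 3 and 11 were LAD in these groups, in that order. Of the 14 bins of the siControl 8-cell LAD, 6 were LAD in siRif1 4-cell, 0 in siRif1 8-cell and 9 in siControl 4-cell embryos. The bins that were LAD in both siControl lists alone and touch the cluster form a stretch of 0.3 Mb (74600001 to 74900000), and 29 of the 104 such stretches of the genome were longer.

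Gene deserts flank HoxD on both sides, and in the mouse they are known to hold enhancers that drive HoxD genes in limb buds. The desert on the posterior side runs from Atp5g3 to Lnpk (73912465 to 74514835, 602 kb), and the one on the anterior side from Mtx2 to Gm50595 (74876749 to 75451973, 575 kb). The posterior desert was 16.6% LAD in siRif1 4-cell and 0% in siControl 4-cell embryos, and 0% in siRif1 8-cell and 68.9% in siControl 8-cell embryos. The anterior desert was 86.9% LAD in siRif1 4-cell and 100% in siControl 4-cell embryos, and 0% in siRif1 8-cell and 100% in siControl 8-cell embryos. At the 4-cell stage the anterior desert was therefore mostly LAD with either siRNA while the cluster's own state differed, and at the 8-cell stage desert and cluster were LAD in siControl and outside LADs in siRif1 embryos together. Over all 583 deserts of at least 500 kb on the autosomes (682 Mb), 50.1% of the bases were LAD in siRif1 4-cell, 25% in siControl 4-cell, 59.1% in siRif1 8-cell and 54.6% in siControl 8-cell embryos. Deserts with no LAD at all, as both HoxD deserts were in siRif1 8-cell embryos, numbered 102 of 583 (17.5%) in that list.

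**Figure D3:**
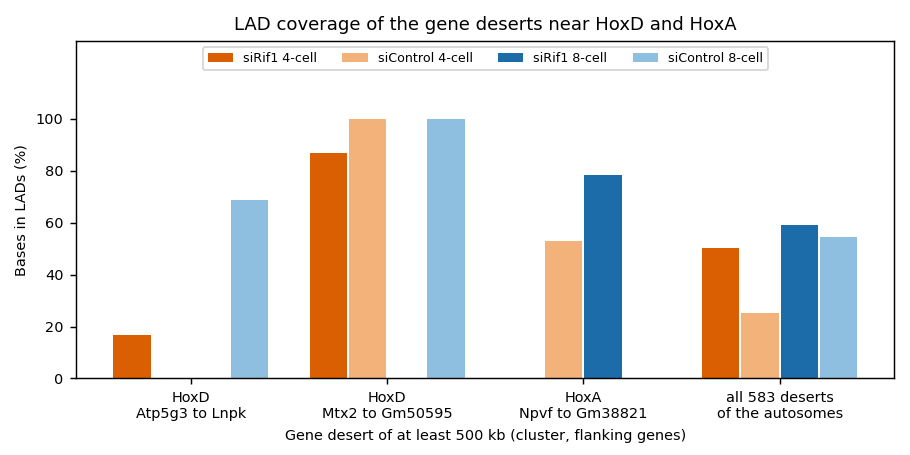
Percent of bases in LADs (vertical axis) in the 3 gene deserts of at least 500 kb that lie within 2 Mb of a Hox cluster and over all such deserts of the autosomes, 1 bar per group and pooled list. The desert from Mtx2 to Gm50595 beside HoxD is at 0% in siRif1 8-cell embryos and between 86.9% and 100% in the other groups.

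Among the genes next to HoxD, the homeobox gene Evx2, 6.70 kb before Hoxd13, and Mtx2, which encodes a mitochondrial import protein, had the state of the cluster in all 4 lists. Lnpk, which shapes the endoplasmic reticulum, was LAD in siControl 8-cell embryos alone. On the far side of the anterior desert, Gm50595, the splicing factor gene Hnrnpa3, the stress response regulator Nfe2l2 and the ether lipid enzyme gene Agps were LAD in siControl 4-cell embryos alone. Chn1, Atf2 and Atp5g3, beyond the posterior desert, were outside LADs in all 4 lists. Of the 10 neighbours, 5 on each side, 0 were LAD in siRif1 4-cell, 6 in siControl 4-cell, 0 in siRif1 8-cell and 3 in siControl 8-cell embryos.

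HoxC lies on the plus strand of chromosome 15 from 102921131 to 103036856 (116 kb), from Hoxc13, which acts in hair and nails, to Hoxc4. Its genes Hoxc8 and Hoxc9 are known for patterning the thoracic region. The promoter window of Hoxc4, the anterior end of the cluster, is the only one of HoxC found. It marks a start inside the annotated gene (103018097 to 103036856) and not the gene's 5′ end. The window lies on the side of the LAD nearest to HoxC in the groups where the cluster was outside LADs (chr15:103034145-103034444, plus strand, RefSeq, GRCm38.p6, GATC in capitals).
Hoxc4 promoter: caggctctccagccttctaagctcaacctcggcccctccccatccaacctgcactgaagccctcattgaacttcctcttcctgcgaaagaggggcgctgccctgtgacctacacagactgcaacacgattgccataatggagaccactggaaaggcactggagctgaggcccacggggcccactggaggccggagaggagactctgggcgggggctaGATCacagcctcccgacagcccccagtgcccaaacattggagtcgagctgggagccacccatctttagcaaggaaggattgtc

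In siRif1 8-cell embryos HoxC lay in a LAD of 1.1 Mb, from 102500001 to 103600000, which began 421 kb before Hoxc13 and ended 563 kb past Hoxc4. The 9 midpoints were 425 to 527 kb inside its border, near the median of 414 kb for genes in LADs of that list. In siControl 8-cell and in siRif1 4-cell embryos a LAD of 2 bins, from 103400001 to 103600000, was the nearest, 363 kb past Hoxc4. In siControl 4-cell embryos this LAD ran from 103100001 to 103600000 and began 63.1 kb past Hoxc4. All 4 lists thus hold a LAD with the same outer end, which is the last LAD of chromosome 15 in each, and differ in how far it reaches towards and over HoxC.

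With every LAD lengthened by 1 bin at each end, Hoxc6, Hoxc5 and Hoxc4 were also LAD in siControl 4-cell embryos, which makes 12 Hox genes there. The 6 bins from 102500001 to 103100000, which hold HoxC, were LAD in siRif1 8-cell embryos alone. Of the 371 stretches with this state, 62 were longer. Of the 11 bins of the whole LAD, 2 were LAD in siRif1 4-cell, 5 in siControl 4-cell and 2 in siControl 8-cell embryos.

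HoxC has 45 other protein-coding genes within 1 Mb, against a median of 29 for all genes, and 70.0% of genes have fewer. No gene desert of at least 500 kb lies within 2 Mb of it. All 10 neighbours were LAD in siRif1 8-cell embryos. On the posterior side these were Tarbp2, which encodes a partner of Dicer, Npff, the transcription factor gene Atf7, Atp5g2 and Calcoco1, and none of the 5 was LAD in another list. On the anterior side, the uracil glycosylase gene Smug1, Cbx5 (heterochromatin protein 1 alpha), the splicing factor gene Hnrnpa1, Nfe2 and Copz1 were LAD in siRif1 8-cell and in siControl 4-cell embryos.

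HoxA lies on chromosome 6 from 52155367 to 52260880 (106 kb) and HoxB on chromosome 11 from 96194316 to 96368254 (174 kb). Hoxb1 acts in hindbrain segmentation, Hoxa2 in the second pharyngeal arch and Hoxa13 in digits and the urogenital tract. A promoter from each of the clusters that lay outside all LADs is shown for comparison, Hoxa13 (chr6:52260831-52261130, minus strand) and Hoxb1 (chr11:96365508-96365807, plus strand), again with GATC in capitals.
Hoxa13 promoter: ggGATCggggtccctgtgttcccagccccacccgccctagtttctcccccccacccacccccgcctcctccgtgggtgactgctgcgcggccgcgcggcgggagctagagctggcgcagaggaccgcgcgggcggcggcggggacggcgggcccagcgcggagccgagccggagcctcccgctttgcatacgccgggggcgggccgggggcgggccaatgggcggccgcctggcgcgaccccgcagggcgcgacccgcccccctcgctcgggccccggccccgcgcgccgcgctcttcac
Hoxb1 promoter: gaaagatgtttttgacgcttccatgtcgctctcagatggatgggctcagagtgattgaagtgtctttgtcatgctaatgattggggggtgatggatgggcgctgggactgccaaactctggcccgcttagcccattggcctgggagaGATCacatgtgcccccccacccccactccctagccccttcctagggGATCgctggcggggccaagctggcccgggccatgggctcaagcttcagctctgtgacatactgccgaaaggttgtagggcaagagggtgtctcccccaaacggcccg

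The Hoxa13 window holds 1 GATC and the Hoxb1 window 2. Of the HoxA windows found, 7 of 10 hold one, and all 3 of HoxB do.

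At the 4-cell stage the nearest LAD lay 1.34 Mb from HoxA with siRif1 and 0.639 Mb away with siControl. At the 8-cell stage it lay 1.06 Mb away with siRif1 and 1.54 Mb away with siControl. The gap between LADs that holds HoxA measured 6.3 Mb with siRif1 and 1.8 Mb with siControl at the 4-cell stage, against 2.7 Mb with siRif1 and 3.4 Mb with siControl at the 8-cell stage. The nearest LAD of siControl 4-cell embryos, from 52900001 to 54400000, took in Jazf1 and Creb5, which were LAD in that list alone. Skap2, Snx10, Cbx3, Hnrnpa2b1 and Nfe2l3 on the anterior side and Evx1, Hibadh and Tax1bp1 on the posterior side were outside LADs in all 4 lists. HoxA has 10 other protein-coding genes within 1 Mb and HoxD has 9, against a median of 29 for all genes. Whether the number of genes nearby bears on the LAD state was not tested.

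The 1 desert of at least 500 kb near HoxA, between Npvf and Gm38821 (50654446 to 51222956, 569 kb), lies 932 kb from the cluster. It was 0% LAD in siRif1 4-cell and 52.8% in siControl 4-cell embryos, and 78.4% in siRif1 8-cell and 0% in siControl 8-cell embryos. The difference between siRif1 and siControl embryos thus had opposite signs at the 2 stages, without a change in the state of HoxA.

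HoxB was the cluster farthest from LADs in each list. Its nearest LAD lay 2.39 Mb away with siRif1 and 1.63 Mb with siControl at the 4-cell stage, and 2.29 Mb away with siRif1 and 2.39 Mb with siControl at the 8-cell stage. The stretch outside all 4 lists that holds it runs 4.1 Mb (93900001 to 98000000), and 29 of the 680 stretches of this kind were longer. The stretch around HoxA measured 1.8 Mb, with 129 longer. All 10 neighbours of HoxB, among them Skap1, Cbx1 (heterochromatin protein 1 beta), Nfe2l1 and Calcoco2, were outside LADs in every list. HoxB has 40 other protein-coding genes within 1 Mb and no desert of at least 500 kb within 2 Mb.

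**Figure D4:**
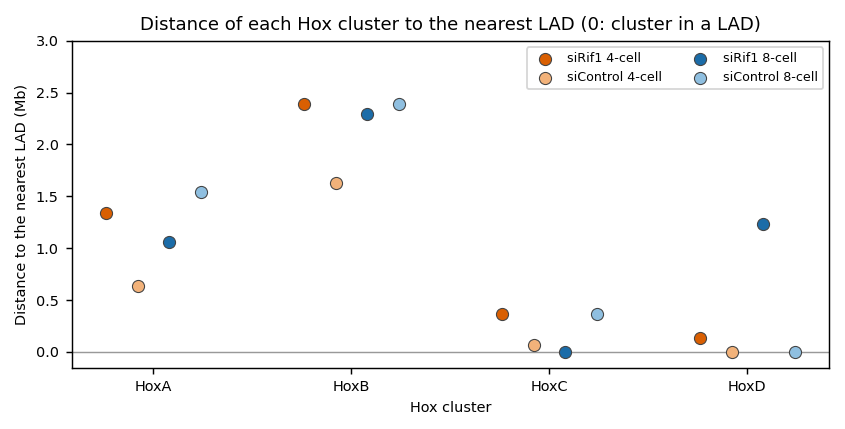
Distance in Mb from each Hox cluster to the nearest LAD (vertical axis, 0 where the cluster is in a LAD), 1 point per group and pooled list. HoxB lies between 1.63 and 2.39 Mb from LADs, and HoxD between 0 Mb in both siControl groups and 1.23 Mb in siRif1 8-cell embryos.

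Within 1 Mb to each side, the flanks of HoxD were 30% LAD in siRif1 4-cell and 53.4% in siControl 4-cell embryos, and 0% in siRif1 8-cell and 65.2% in siControl 8-cell embryos. The flanks of HoxC were 10% LAD in siRif1 4-cell and 25% in siControl 4-cell embryos, and 49.2% in siRif1 8-cell and 10% in siControl 8-cell embryos. Its higher-coordinate flank ran to 104036856, past the end of the mapped span at 103600000. That end is where the last LAD of the lists ends, so no list holds a LAD past it. Bases past it count as outside LADs, and whether signal was measured there is not known. The flanks of HoxA were LAD in siControl 4-cell embryos alone (18.0%), which held for this width: within 2 Mb to each side they were 16.5% LAD in siRif1 4-cell, 41.5% in siControl 4-cell, 24.0% in siRif1 8-cell and 12.5% in siControl 8-cell embryos. The flanks of HoxB within 1 Mb were at 0% in all 4 lists. Of the chromosomes that carry the clusters, chromosome 2 (HoxD) was 51.5% LAD in siRif1 8-cell and 47.7% in siControl 8-cell embryos, and chromosome 15 (HoxC) was 37.8% LAD in siRif1 8-cell and 37.5% in siControl 8-cell embryos. Chromosome 6 (HoxA) was 46.8% LAD in siRif1 8-cell and 37.3% in siControl 8-cell embryos, and chromosome 11 (HoxB) 34.0% in siRif1 8-cell and 32.6% in siControl 8-cell embryos. At the 4-cell stage chromosomes 2, 6, 11 and 15 were 43.4%, 43.7%, 43.3% and 41.1% LAD in siRif1 embryos and 31.4%, 39.5%, 30.8% and 29.8% LAD in siControl embryos.

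**Figure D5:**
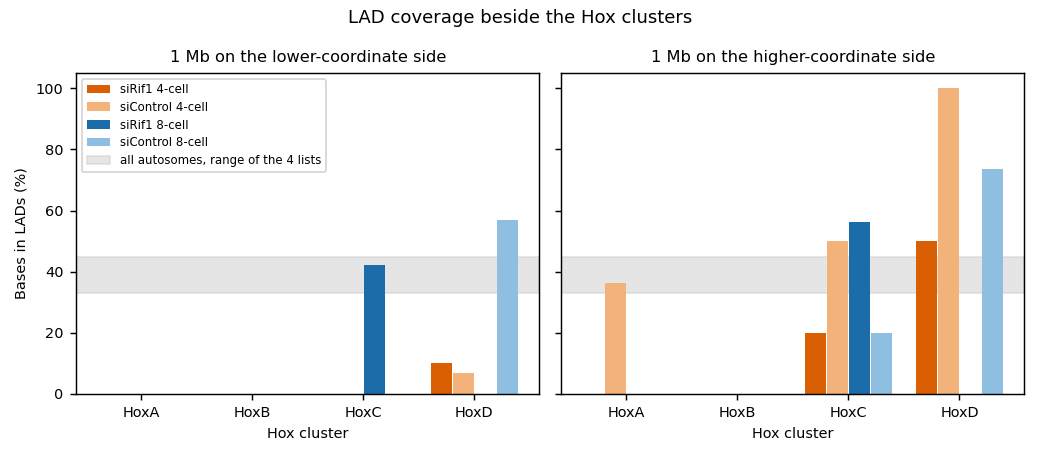
Percent of bases in LADs (vertical axis) in the 1 Mb on the lower-coordinate side (left) and on the higher-coordinate side (right) of each Hox cluster, 1 bar per group and pooled list, with the range of the 4 lists over all autosomes in grey (32.9% to 44.7%). The higher-coordinate side of HoxD is at 50% in siRif1 4-cell, 100% in siControl 4-cell, 0% in siRif1 8-cell and 73.5% in siControl 8-cell embryos. The higher-coordinate side of HoxC reaches past the last LAD of the lists, where the mapped span ends, and bases there count as outside LADs. The grey range covers the mapped span alone.

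Read by paralogue number, the states split between clusters and not along them. Groups 4, 9 and 13 have a member in every cluster, and in each of them the HoxD gene was LAD in both siControl groups, the HoxC gene in siRif1 8-cell embryos, and the HoxA and HoxB genes in no list. Groups 2 and 7, which have members in HoxA and HoxB alone, were LAD in no list. Posterior groups 10 to 13 and anterior groups 1 and 3 both had a LAD member in siControl embryos at each stage, all of them in HoxD.

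The clusters also hold non-coding genes, of which 17 follow the names chosen for this work, 11 long non-coding RNAs and 6 microRNA genes. Each had the state of its cluster. Hotair, transcribed from HoxC, was LAD in siRif1 8-cell embryos alone, and Haglr and Hoxd3os1 in HoxD were LAD in both siControl groups. Hotairm1, Hotairm2, Hoxaas2, Hoxaas3, Hoxa11os and Hottip in or beside HoxA and Hoxb3os and Hoxb5os in HoxB were outside LADs in all lists. The microRNAs miR-10 and miR-196 are made from genes in several Hox clusters and are known to target Hox transcripts. Their mature sequences are shown because members that share a seed lay in clusters of different state (RefSeq, GRCm38.p6, bases 2 to 8, the seed, in capitals).
mmu-miR-10b-5p: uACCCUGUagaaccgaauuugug
mmu-miR-10a-5p: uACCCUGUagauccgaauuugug
mmu-miR-196a-5p: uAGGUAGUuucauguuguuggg
mmu-miR-196b-5p: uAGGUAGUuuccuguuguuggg
mmu-miR-615-3p: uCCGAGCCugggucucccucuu

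The first 2 share a seed and are identical at 22 of 23 positions, with the difference A12U between miR-10b-5p and miR-10a-5p, counted from 1 at the 5′ end. Mir10b, in HoxD, was LAD in both siControl groups, and Mir10a, in HoxB, in no list. The miR-196 sequences also share a seed and are identical at 21 of 22 positions (C12A between miR-196b-5p and miR-196a-5p). The same mature miR-196a-5p comes from Mir196a-1 in HoxB, outside LADs in all lists, and from Mir196a-2 in HoxC, LAD in siRif1 8-cell embryos alone. Mir196b in HoxA was outside LADs in every list. Mir615, which lies within HoxC and has a seed of its own, had the state of HoxC.

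Genes that act with or upstream of Hox genes, or are related to them (ParaHox and Evx genes), were read from 5 lists, of which 70 members could be placed. Of these, 10 were LAD in siRif1 4-cell, 13 in siControl 4-cell, 13 in siRif1 8-cell and 11 in siControl 8-cell embryos, beside the 24% to 26.3% of all protein-coding genes given above. Among the Hox cofactors, which bind DNA with Hox proteins, Meis1 was LAD in all 4 lists, Meis2 in all but siControl 4-cell embryos and Pknox2 in siRif1 4-cell embryos alone. Cofactors LAD in no list numbered 5. The ParaHox cluster, a sister cluster of homeobox genes on chromosome 5, had the state of HoxC: Gsx1, Pdx1 and Cdx2, within 147188696 to 147307249, were LAD in siRif1 8-cell embryos alone. These genes lie close together and are readings of a single locus. Of the other genes of that list, Evx2 is described above and 4 were LAD in no list, among them Gsx2, elsewhere on chromosome 5, and Cdx1. Pdx1 acts in the pancreas and Cdx2 in the trophectoderm and in the control of Hox genes.

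Of all protein-coding genes, 57.4% were LAD in no list. Of 29 Polycomb genes placed, 23 (79.3%) were LAD in no list, including the enzyme genes Ezh1 and Ezh2. Aebp2 and Yaf2 were LAD in all 4 lists. Eed, a core subunit of Polycomb complex PRC2, was LAD in all but siRif1 8-cell embryos, Pcgf5 in all but siRif1 4-cell embryos, and Phc3 and Rybp in siControl 4-cell embryos alone. Of 9 Trithorax and domain border genes, 8 (88.9%) were LAD in no list, and the histone demethylase gene Kdm6b was LAD in siControl 8-cell embryos alone. Among 15 genes of retinoic acid signalling, which acts on Hox genes, Rxrg was LAD in all 4 lists and 9 (60%) in none. The receptor gene Rarb and the binding protein gene Crabp1 were LAD in all but siControl 8-cell embryos, the receptor gene Rara in siControl 4-cell embryos alone, the degrading enzyme gene Cyp26b1 in siRif1 8-cell embryos alone and the synthesising enzyme gene Aldh1a1 in siControl 8-cell embryos alone.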

How the data were processed

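The authors deposited 1 LAD list for each of the 4 groups, made from all 3 replicates per the series' design text, as start and end positions on a 100-kb grid. The score field of the deposited lists is 0 in every row. Per the submitters' processing notes, the tools were Picard, SAMtools, Bowtie2 and Trimmomatic and the build mm10, that is GRCm38. How LADs were called, and whether unfused Dam was subtracted, is not given in the sources used here. Depth is unknown, so no interval for counting error is given.

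Coordinates are 1-based on GRCm38, and on each chromosome the mapped span is bounded by the outermost LADs of the lists (2384.9 Mb in all). Genes came from RefSeq GRCm38.p6, leaving out 333 entries with scaffold coordinates, and were placed by midpoint. Chromosome X was not analysed here. Overlaps were computed in Python 3.11.15 with pandas 2.3.3, after a test on simulated lists. The members, lists and alternatives were chosen with earlier results of these data known. Named are all Hox genes, 5 neighbours per side, non-coding genes of set names in or beside the clusters, and list members whose state differs between lists; list members with the same state in all 4 lists were named after their values were seen. Some genes are not reported here by name, and are counted in the totals.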

Additional observations from a re-analysis of the deposited data

Results flagged for a closer look

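In 3 regions the difference between siRif1 and siControl embryos in percent of bases in LADs had opposite signs at the 2 stages. Each value rests on 1 pooled list per group, and the difference between stages was not tested.

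The higher-coordinate flank of HoxC runs past the last LAD of the lists, where the mapped span ends, and bases there count as outside LADs. Over the 1 Mb to each side of HoxC, siRif1 minus siControl was -15 percentage points at the 4-cell stage (10% in siRif1 and 25% in siControl embryos) and 39.2 points at the 8-cell stage (49.2% in siRif1 and 10% in siControl embryos). In the desert between Atp5g3 and Lnpk beside HoxD it was 16.6 points at the 4-cell stage (16.6% in siRif1 and 0% in siControl embryos, a single bin) and -68.9 points at the 8-cell stage (0% in siRif1 and 68.9% in siControl embryos). In the desert between Npvf and Gm38821 near HoxA it was -52.8 points at the 4-cell stage (0% in siRif1 and 52.8% in siControl embryos) and 78.4 points at the 8-cell stage (78.4% in siRif1 and 0% in siControl embryos).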

How the results depend on the processing

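Of 180 values recomputed under another setting, 170 stayed within the limits used (1.5 times a count, or the 95% binomial interval of a share of bins). This share is no measure of robustness, because many of the values could not move. The binomial interval also treats neighbouring bins as independent, which they are not. With every LAD shortened by 1 bin at each end, 4 Hox genes were LAD in siControl 4-cell embryos, 4 in siControl and not in siRif1 4-cell embryos, and 5 in siControl 8-cell and not in siControl 4-cell embryos. With every LAD lengthened by 1 bin, 3 were LAD in siControl 4-cell and not in siControl 8-cell embryos. With flanks of 500 kb, coverage was 0% for HoxA in siControl 4-cell, 92.1% for HoxC in siRif1 8-cell and 100% for HoxD in siControl 8-cell embryos; with flanks of 2 Mb it was, for HoxA, 16.5% in siRif1 4-cell, 41.5% in siControl 4-cell, 24.0% in siRif1 8-cell and 12.5% in siControl 8-cell embryos. With LADs of at least 300 kb only, the HoxC flanks were at 0% in siRif1 4-cell and in siControl 8-cell embryos, since the LAD there has 2 bins. No desert value moved past its limit, but the HoxD deserts were merged into 1 value per group, so their separate percentages were not checked. With deserts of at least 300 kb, the HoxD value in siControl 8-cell embryos went from 84.1% to 60.8% and was within its limit. Limiting deserts to those within 1 Mb, or bridging gaps of up to 200 kb, left every desert value unchanged. The number of Hox genes in LADs was the same in each list with gaps of up to 200 kb bridged, with LADs of at least 300 kb, and when placed by any overlap, whole body or, for 22 genes, transcription start. These settings could not change it. Each LAD that holds a cluster is longer than 300 kb and covers all of it, and the other clusters lie in gaps longer than 200 kb. No paired analysis was possible because each list pools the replicates, and for the same reason no replicate could be left out.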

Other observations

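Homeobox genes outside the Hox clusters often lie in smaller clusters, and 28 of them were read in the same lists. Of these, 9 (32.1%) were LAD in siRif1 4-cell embryos (all protein-coding genes 24%), 7 (25%) in siControl 4-cell (all genes 24.7%), 4 (14.3%) in siRif1 8-cell (24.2%) and 5 (17.9%) in siControl 8-cell embryos (26.3%). Linked genes are not independent readings, so these counts stand for fewer loci than genes. LAD in no list were 19 (67.9%), against 57.4% of all genes. Dlx5 and Dlx6, a pair of limb and jaw regulators on chromosome 6, the HoxA chromosome, were LAD in all 4 lists, as were Nkx2-2 and Nkx2-4 on chromosome 2. Dlx1 and Dlx2 on chromosome 2 and Dlx3 and Dlx4 on chromosome 11 were LAD in no list.

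As in the Hox clusters, neighbours mostly shared a state. Nkx2-1, a lung and thyroid regulator, and Nkx2-9 on chromosome 12 were LAD in siRif1 4-cell embryos alone. Irx3 and Irx5 on chromosome 8 were LAD in siRif1 and in siControl 4-cell embryos and in neither 8-cell group, while Irx6, next to them, was also LAD in siControl 8-cell embryos. Irx1, Irx2 and Irx4, the paralogous cluster on chromosome 13, were LAD in no list.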
